A study of Mus musculus with 8 samples.

Results

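Neurexin 2 and 8 further genes for cell adhesion proteins of the synapse were followed in cultured mouse melanocytes, the pigment cells of the skin. The 9 genes were Nrxn2, Nrxn3, Nlgn1, Nlgn2, Nlgn3, Cadm1, Cadm4, Slitrk6 and Csmd1, out of 22180 genes with a probe set on the array, and all 9 were measured. They were matched by symbol, and for a gene with several probe sets the brightest was used. The set was assembled with measured values in view. Nrxn2 was among the 7 of 22180 genes called between the genotypes, 0.0316% of those tested. Those calls came from a limma model in which replicate numbers entered as blocks, and 0 genes were called between the genotypes with no block, with the sham and UVA arrays of each genotype and number averaged, or with any 1 array left out. Cadm4 and Csmd1 were taken for their genotype difference, and Slitrk6 for its difference after UVA. Those 4 differences are therefore given as descriptions without a test.

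Neurexins are presynaptic cell surface proteins that bind neuroligins on the opposite membrane, and their pairing helps to organise a synapse. SynCAMs, encoded by the Cadm genes, are immunoglobulin adhesion proteins that bind each other across cell contacts, also outside the nervous system. SLITRK proteins carry leucine-rich repeats and bind receptor phosphatases of the LAR family. Several of these proteins are also made by cells of the neural crest lineage, from which melanocytes derive.

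The KO melanocytes carried floxed Atg7 alleles and Tyr::Cre (Atg7 f/f Tyr::Cre), in which the tyrosinase promoter drives the recombinase in pigment cells, and lacked autophagy. The WT melanocytes carried the floxed alleles alone (Atg7 f/f), so both genotypes share them. Cells came from pups aged 1 to 5 days, labelled female, and were kept in MGM-2 medium for 22 days before they received 20 J/cm² UVA-1 or a sham treatment. RNA was taken 6 h later. The groups, KO UVA, KO sham, WT UVA and WT sham, had 2 arrays each, described by the submitters as biological duplicates and numbered 1 and 2 in every group. The labels do not say whether animals were pooled or what a number stands for, so p-values measure the spread between these arrays only.

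Values are RMA intensities on Affymetrix whole-transcript arrays, on which the median probe set of an array read 110 to 115. The probe set for Atg7 read 804 and 602 in KO UVA, 831 and 598 in KO sham, 1004 and 832 in WT UVA, and 989 and 859 in WT sham (numbers 1 and 2). The highest KO array was below the lowest WT array by 1 unit, an arrangement seen in 0.942% of all genes. The log2 difference of -0.39 (SE 0.07) did not pass the limma test (adjusted p = 0.297). Sqstm1, the gene for the autophagy receptor p62, differed by 0.13 (SE 0.04; limma adjusted p = 0.477). The part of Atg7 that the probes cover is not given in the sources used here, so this value is a limited check of the deletion. All 8 melanocyte markers were measured. In number 1 their summed intensity was 54011 to 56253 in KO and 52970 to 55395 in WT. In number 2 it was 79196 to 80607 in KO and 88455 to 89456 in WT. The median of their KO minus WT differences was 0.04 in number 1 and -0.23 in number 2. Averaged over the numbers, 1 of the 8 was positive, against 45.8% of all genes, and limma called 0 of the 8. Arrays of a number moved together, and the 9 fibroblast markers showed it most: their summed intensity was 40267 to 42604 in KO and 39428 to 40290 in WT of number 1, against 17560 to 18903 in KO and 7250 to 8033 in WT of number 2. These markers differed between KO and WT by 0.03 log2 units (median) in number 1 and 1.20 in number 2, and values are given within each number for that reason. In bulk RNA a change in the share of a cell type cannot be told apart from a change of RNA level per cell.

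Nrxn2, the gene for neurexin 2, read higher in KO on every array. It read 647 and 913 in KO UVA and 655 and 862 in KO sham, against 271 and 375 in WT UVA and 218 and 383 in WT sham. The lowest KO array, at 647, stood well above the highest WT array, at 383. On the log2 scale the means were 9.59 ± 0.35 in KO UVA, 9.55 ± 0.28 in KO sham, 8.32 ± 0.33 in WT UVA and 8.17 ± 0.57 in WT sham (SD, n = 2 each). In that order the 2 KO groups differed by less than their spread and so did the 2 WT groups, and the gap lay between KO sham and WT UVA.

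The KO level of Nrxn2 was 2.41-fold the WT level after UVA and 2.60-fold after sham, an averaged log2 difference of 1.32 (SE 0.09). Within number 1 the difference was 1.26 after UVA and 1.59 after sham, and within number 2 it was 1.28 and 1.17. The median difference of the fibroblast markers was 0.03 in number 1 and 1.20 in number 2, and their part in the Nrxn2 values was not tested. Treatment left Nrxn2 with little difference: UVA minus sham was 0.09 (SE 0.09), which did not pass the limma test (adjusted p = 0.907). The UVA response in KO minus that in WT was -0.11 (SE 0.17; limma adjusted p = 1).

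A second probe set assigned to Nrxn2 did not show the genotype difference. It read 133 and 136 in KO UVA and 102 and 147 in KO sham, against 129 and 136 in WT UVA and 131 and 126 in WT sham. The genotypes overlapped completely on it, and its averaged KO minus WT difference was -0.02 on the log2 scale. The mean of both probe sets gave 0.65. The second probe set read close to the median probe set of an array, at 110 to 115, and whether it detects a transcript was not tested. The files do not say which exons or which of the long and short neurexin transcripts either probe set covers, so the genotype difference is that of 1 of the 2 Nrxn2 probe sets. Which transcripts it stands for was not tested.

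**Figure D1:**
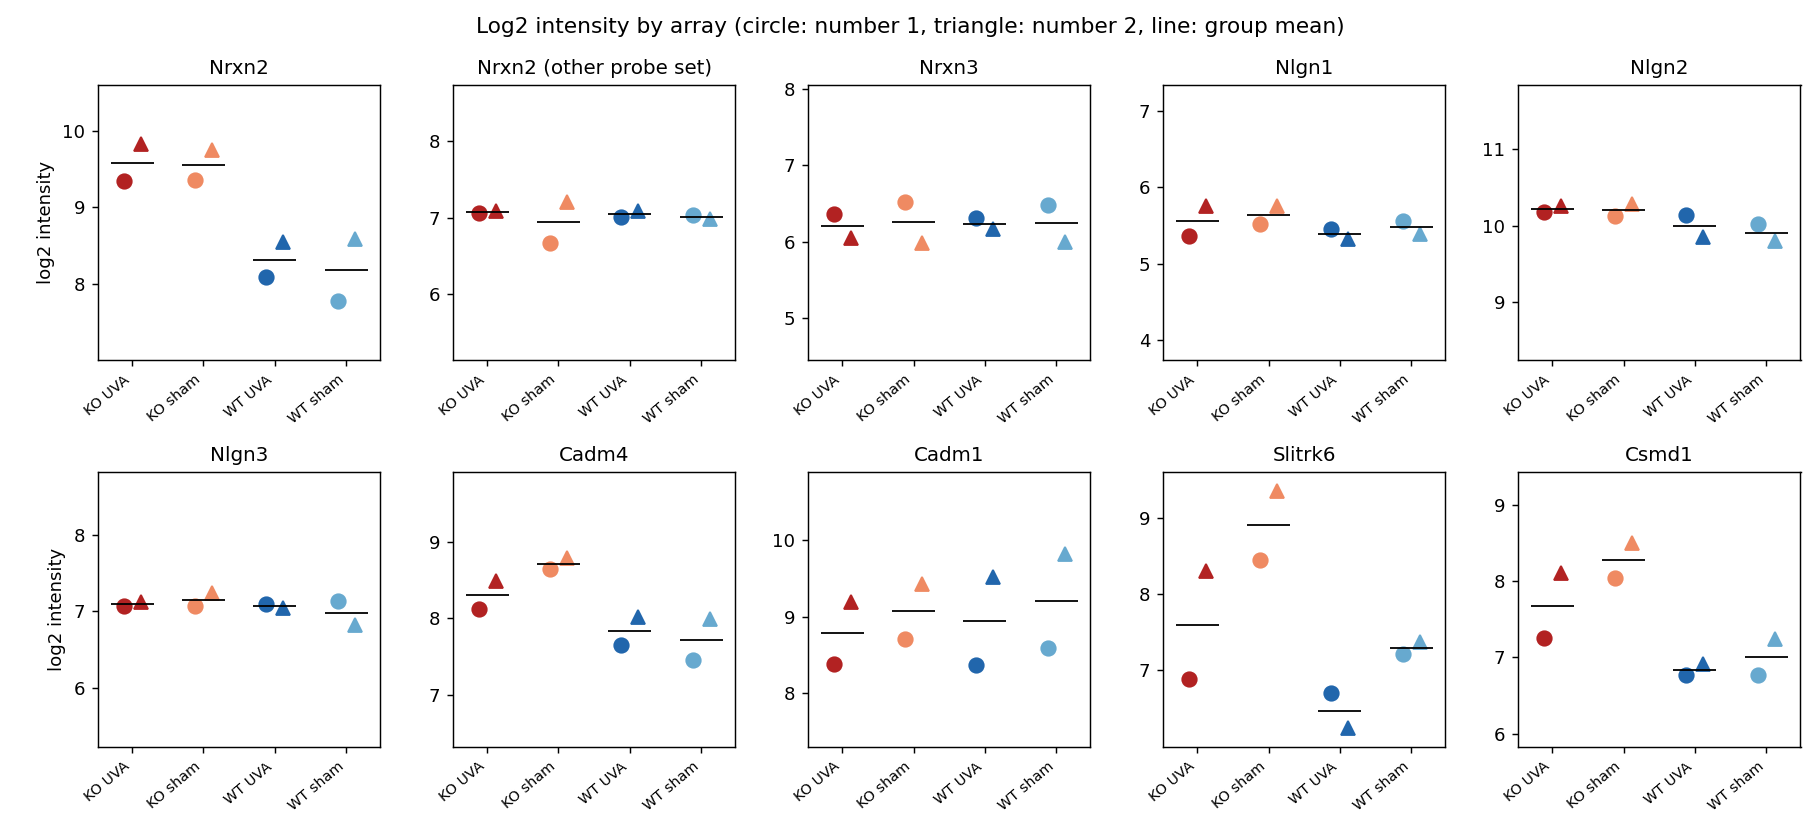
Log2 intensity of the 9 genes and of the second Nrxn2 probe set on each of the 8 arrays, by group, with circles for number 1, triangles for number 2 and a line at each group mean; every panel spans the same number of log2 units. KO arrays lie above all WT arrays for Nrxn2, Cadm4 and Csmd1, the second Nrxn2 probe set is level, and Slitrk6 is lower after UVA in both genotypes.

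Markers of neurons, the cells in which neurexins are best known, went both ways between the genotypes. The 9 markers, among them Tubb3, Snap25 and Map2, summed to 1610 and 1830 in KO UVA and 2208 and 2004 in KO sham, against 1961 and 2182 in WT UVA and 1991 and 2553 in WT sham. The median of their genotype differences was 0.01 in number 1 and 0.04 in number 2. Limma called 0 of the 9 between the genotypes (3 at an unadjusted p under 0.05, against 8.88% of all genes). These 3, named after their values were seen, were Snap25 with a KO minus WT difference of 0.44, Tubb3 with -0.44 and Map2 with -0.41 (SE 0.11, 0.18 and 0.17; limma adjusted p = 0.413, 0.563 and 0.563). In numbers 1 and 2 the differences were 0.43 and 0.45 for Snap25, 0.01 and -0.88 for Tubb3, and -0.71 and -0.11 for Map2. The part of neuronal cells in the Nrxn2 values was not tested. The synaptic vesicle genes Syt1 and Syp ranged over all arrays from 85 to 101 and from 117 to 155.

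The other neurexin and the neuroligins showed small differences between the 4 groups. Nrxn3, the gene for neurexin 3, read 82 and 66 in KO UVA and 92 and 63 in KO sham, against 79 and 72 in WT UVA and 89 and 64 in WT sham. Its arrays ordered by number and not by genotype, with number 1 above number 2 in every group, and KO minus WT was -0.01 (SE 0.09; limma adjusted p = 0.982). Nlgn2, the neuroligin of inhibitory synapses, read 1161 and 1228 in KO UVA and 1119 and 1251 in KO sham, against 1129 and 923 in WT UVA and 1036 and 887 in WT sham.

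Nlgn2 was higher in KO in all 4 pairs of arrays matched for treatment and number. The averaged difference of 0.26 (SE 0.09) did not pass the limma test (adjusted p = 0.532), and it was 0.08 in number 1 and 0.45 in number 2, where the fibroblast markers differed by 1.20; their part in it was not tested. Nlgn1, the neuroligin of excitatory synapses, ranged from 41 to 54 in KO and from 40 to 47 in WT, with a KO minus WT difference of 0.17 (SE 0.11; limma adjusted p = 0.693). Nlgn3, which acts at both kinds of synapse, ranged from 134 to 151 in KO and from 113 to 141 in WT, with a difference of 0.10 (SE 0.10; limma adjusted p = 0.787). UVA minus sham lay between -0.08 and 0.05 for these 4 genes, and none passed (limma adjusted p = 0.944 to 0.985). Whole-number rounding of the deposited values coarsens a gene as dim as Nlgn1, where 1 unit is a sizeable step.

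Cadm4, also known as Necl4, is an adhesion protein of Schwann cells that binds axons. It read 280 and 360 in KO UVA and 401 and 443 in KO sham, against 201 and 259 in WT UVA and 175 and 255 in WT sham. The lowest KO array, at 280, lay above the highest WT array, at 259. Together with Nrxn2 and Csmd1 it was 1 of 3 of the 9 genes whose KO arrays all lay above the WT arrays, an arrangement seen in 0.866% of all genes, and all 3 had been chosen on this contrast. The reverse arrangement, all KO arrays below all WT arrays, held for 0 of the 9 genes and 0.942% of all genes. The genotype difference of Cadm4 was 0.48 after UVA in each number, and after sham it was 1.20 in number 1 and 0.80 in number 2.

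Cadm4 was lower after UVA in both KO pairs, while the WT pairs stood slightly above sham. UVA minus sham was -0.52 and -0.30 in KO (numbers 1 and 2) and 0.20 and 0.02 in WT. The WT average of 0.11 had an SE of 0.12, so WT showed no direction beyond its error. The difference between the responses was -0.52 (SE 0.17) with an unadjusted p of 0.0177 in limma, and it did not pass over all genes (adjusted p = 1). No gene of the 22180 was called for this difference, 0% of those tested, while 458 (2.06%) had an unadjusted limma p under 0.05. The 7 Schwann cell markers used here summed to 8030 to 10721 in KO and 6743 to 10971 in WT, and the median of their genotype differences was 0.22 for number 1 and -0.06 for number 2; their part in the Cadm4 values was not tested.

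The promoters of Cadm4 and Slitrk6 are shown because the first gene was chosen for its genotype difference and the second for its UVA difference. Each runs from 250 bases before to 50 after the annotated start (RefSeq, GRCm38.p6), and capitals mark motif matches: the core of the antioxidant response element bound by NRF2 (TGACNNNGC), the AP-1 site (TGANTCA) and the E-boxes CATGTG and CACGTG, searched on both strands. CACGTG was searched in place of the general E-box CANNTG after the matches to CANNTG had been seen, among them the one in Slitrk6 that reads CACGTG. Cadm4 lies at chr7:24481773-24482072 on the plus strand and Slitrk6 at chr14:110755100-110755399 on the minus strand.
Cadm4: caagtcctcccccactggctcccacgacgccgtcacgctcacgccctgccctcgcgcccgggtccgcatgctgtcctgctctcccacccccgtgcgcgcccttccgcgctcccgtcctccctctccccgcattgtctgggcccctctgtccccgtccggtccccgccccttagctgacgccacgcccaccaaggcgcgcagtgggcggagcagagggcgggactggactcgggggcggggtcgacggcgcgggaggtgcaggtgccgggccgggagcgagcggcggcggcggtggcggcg
Slitrk6: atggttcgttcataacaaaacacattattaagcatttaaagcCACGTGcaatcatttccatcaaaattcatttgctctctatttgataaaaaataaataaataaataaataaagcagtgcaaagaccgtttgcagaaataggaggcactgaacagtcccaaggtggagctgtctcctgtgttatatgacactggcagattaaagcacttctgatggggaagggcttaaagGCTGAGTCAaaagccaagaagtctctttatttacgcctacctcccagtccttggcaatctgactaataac
The Cadm4 window held no match to any of these 4 motifs and 1 to CANNTG. It was 77.0% G and C with 40 CpG pairs, against a median of 52.7% G and C over 32851 promoter windows. The Slitrk6 window was 38.3% G and C with 4 CpG pairs. It held CACGTG 208 bases before the start and, 20 bases before the start, GCTGAGTCA, which is the antioxidant element core read on the other strand and contains the AP-1 site TGAGTCA, so these 2 matches overlap. Of all windows, 12.4% held the antioxidant element core, 7.81% the AP-1 site, 14.2% CATGTG, 7.15% CACGTG and 72.3% CANNTG, which matched at 2 places in the Slitrk6 window. Windows were on hand for 5 of the 9 genes, and Nrxn3 had an antioxidant element core in 1 of its windows and an AP-1 site in another. A match describes these letters only and shows no binding.

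Slitrk6, a leucine-rich adhesion protein needed for inner ear innervation, read 119 and 316 in KO UVA and 348 and 655 in KO sham, against 104 and 76 in WT UVA and 148 and 165 in WT sham. The UVA array was below its sham partner in all 4 pairs. The UVA level was 0.342 and 0.482 of the sham level in KO (numbers 1 and 2) and 0.703 and 0.461 in WT. The averaged UVA minus sham difference was -1.06 (SE 0.28) on the log2 scale.

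Slitrk6 also had the largest averaged genotype difference of the 9 genes, with a wide spread. In order, the group means were 8.90 ± 0.65 in KO sham, 7.60 ± 1.00 in KO UVA, 7.29 ± 0.11 in WT sham and 6.47 ± 0.32 in WT UVA (log2, SD, n = 2 each). KO UVA and WT sham differed by less than the spread of KO UVA. KO minus WT averaged 1.37 (SE 0.28) and did not pass the limma test (adjusted p = 0.345). After UVA it was 0.19 in number 1 and 2.06 in number 2, and after sham 1.23 and 1.99. The larger values fell in the number in which the fibroblast markers also differed, and the part of those cells was not tested. The UVA response in KO minus that in WT was -0.49 (SE 0.56; limma adjusted p = 1).

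Csmd1, a large membrane protein with complement control domains, read 152 and 274 in KO UVA and 264 and 360 in KO sham, against 109 and 120 in WT UVA and 109 and 151 in WT sham. The lowest KO array, at 152, exceeded the highest WT array, at 151, by 1 unit. KO minus WT averaged 1.05 (SE 0.12), and was 0.88 in number 1 and 1.22 in number 2. UVA minus sham was -0.38 (SE 0.12) and did not pass the limma test (adjusted p = 0.716); in KO it was -0.80 and -0.39, and in WT 0.00 and -0.33. Its family members Csmd2 and Csmd3 ranged from 100 to 120 and from 43 to 57 over all arrays, with KO minus WT differences of 0.07 each (SE 0.07 and 0.08).

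Cadm1, a SynCAM with which mast cells also attach to nerve cells and fibroblasts, did not share the genotype difference of Cadm4. It read 334 and 585 in KO UVA and 420 and 691 in KO sham, against 331 and 737 in WT UVA and 386 and 909 in WT sham. Number 2 was above number 1 in every group, by 0.98 log2 units on average. KO minus WT was -0.15 (SE 0.10; limma adjusted p = 0.698), and its sign differed between the numbers, 0.07 in number 1 and -0.36 in number 2. After UVA its level was 0.795 and 0.847 of sham in KO and 0.858 and 0.811 of sham in WT.

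That averaged UVA difference of Cadm1, -0.27 (SE 0.10), was alike in number 1 (-0.28) and number 2 (-0.27) but did not pass the limma test (adjusted p = 0.724). Cadm1 and Slitrk6 were the 2 of the 9 genes that were lower after UVA in all 4 pairs, an arrangement found in 9.08% of all genes. None of the 9 had all UVA arrays above all sham arrays (1.23% of all genes) or all below them (0.6%). Limma called 3 genes for UVA against sham, 0.0135% of those tested (0 with no block), and 0 of the 8 members tested on that contrast, with 2 of them at an unadjusted limma p under 0.05. Between the genotypes 6 members were tested and 0 were called, with 2 at an unadjusted limma p under 0.05. Of all genes, 6.54% were at such a p for UVA against sham and 8.88% between the genotypes.

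**Figure D2:**
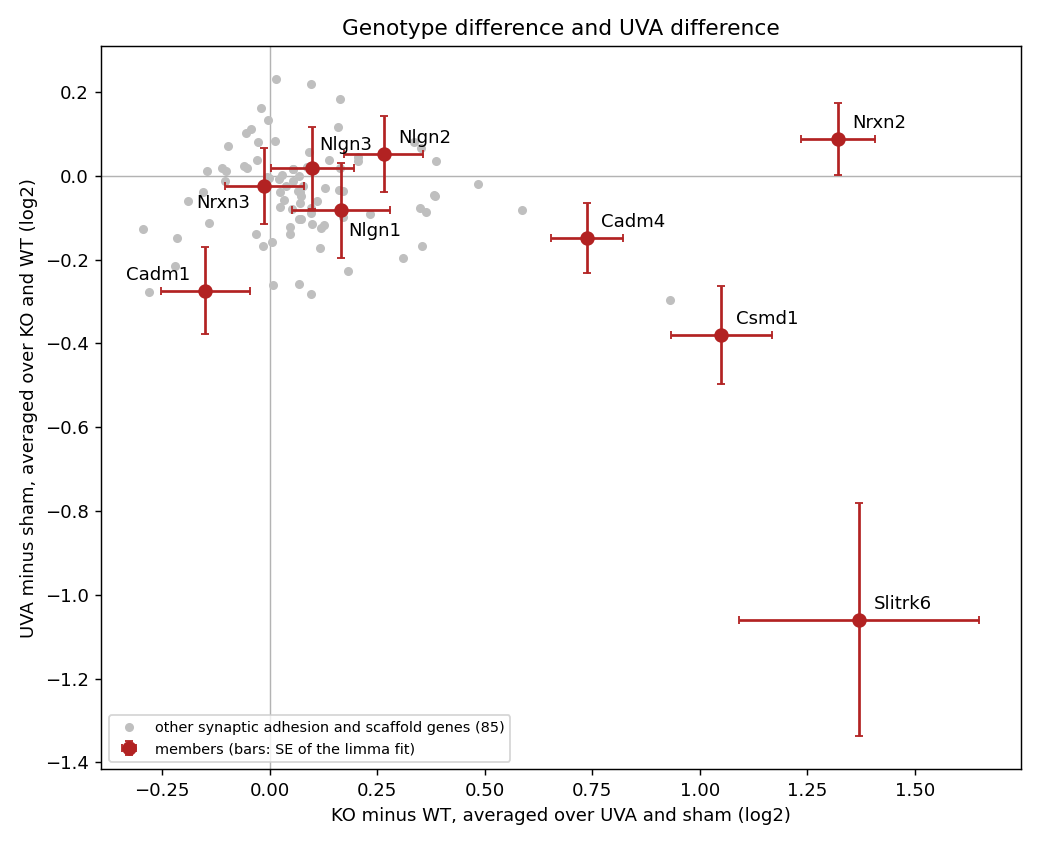
KO minus WT difference (horizontal axis, log2, averaged over UVA and sham) against UVA minus sham difference (vertical axis, log2, averaged over KO and WT) for the 9 members in red with the SE of the limma fit, and for 85 other genes of synaptic adhesion in grey. Nrxn2 lies far to the right at a UVA difference of 0.09, Slitrk6 lies to the right and lowest at -1.06, and Cadm4 and Csmd1 lie left of both, at genotype differences of 0.74 and 1.05.

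The setting of Nrxn2 and Cadm4 against Slitrk6 was the contrast on which these genes were chosen. For Nrxn2 the genotype difference was 1.32 beside a UVA difference of 0.09, and for Cadm4 it was 0.74 beside -0.15. For Slitrk6 the UVA difference of -1.06 stood beside a genotype difference of 1.37, so a large genotype value was not lacking in the gene chosen for UVA. In 5 of the 9 genes, Nrxn2, Nlgn2, Cadm4, Slitrk6 and Csmd1, KO exceeded WT in all 4 matched pairs, which 7.65% of all genes did; 3 of those 5 were chosen on that contrast. The median KO minus WT difference of the 6 members not chosen on it was 0.13, against -0.01 over all genes. The median UVA minus sham difference of the 8 not chosen on that was -0.05, against 0.00. The UVA response in KO minus that in WT was negative for all 9, with a median of -0.11, against -0.01 over all genes and 47.2% of all genes positive. None passed the limma test (adjusted p = 1 each), and in 7 of the 9 the sign turned when 1 array was left out.

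**Figure D3:**
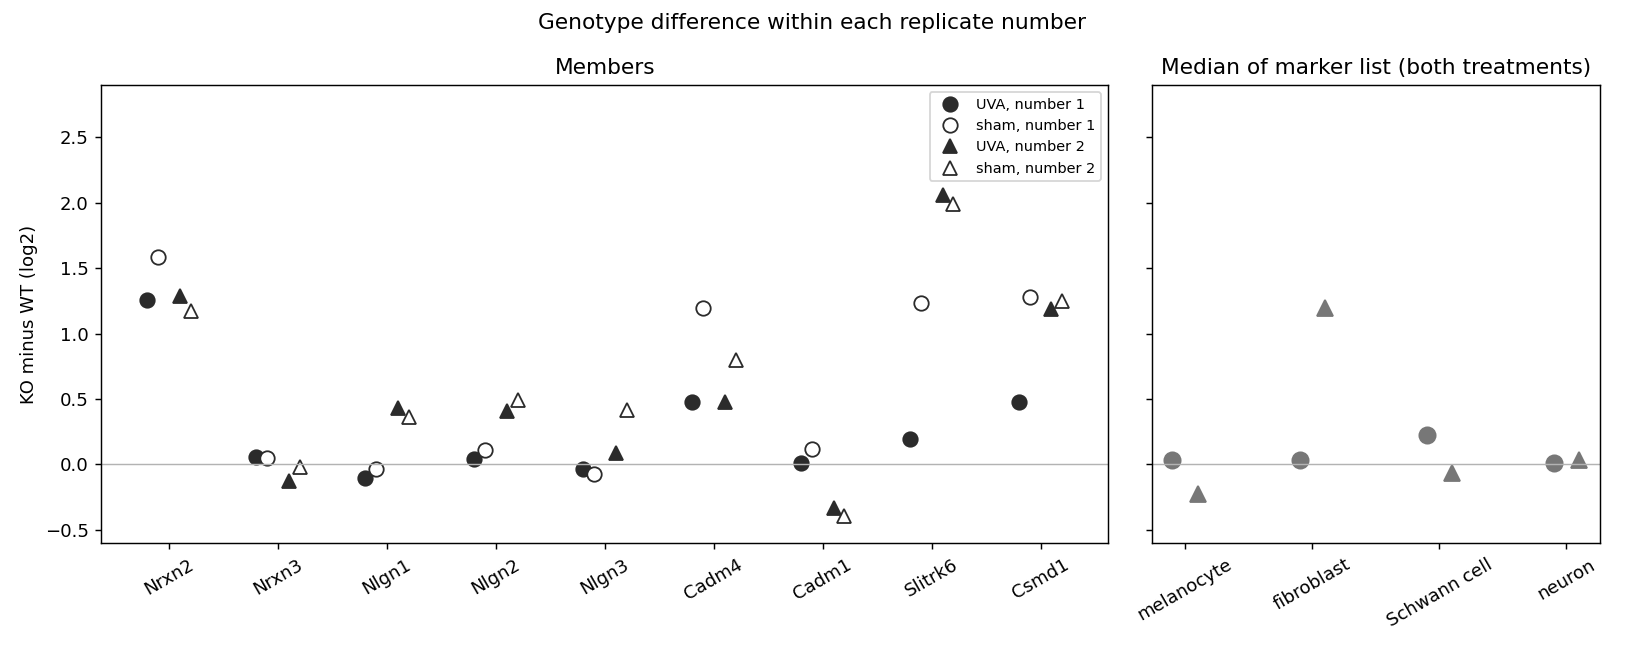
KO minus WT difference in log2 units within each replicate number, after UVA (filled) and sham (open), for the 9 members (left), and the median of 4 cell type marker lists over both treatments (right). Nrxn2 lies between 1.17 and 1.59 in all 4 comparisons, whereas Slitrk6 runs from 0.19 to 2.06 and the fibroblast median is 0.03 in number 1 and 1.20 in number 2.

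The wider system of synaptic adhesion was followed in 92 further genes, of which 85 were measured. They were other SynCAMs and nectins, leucine-rich receptors, LAR phosphatases, latrophilins and teneurins, secreted neurexin ligands, immunoglobulin proteins and intracellular scaffolds. None of the 85 was called by limma between the genotypes, after UVA or for the interaction (18, 6 and 2 at an unadjusted p under 0.05, against 8.88%, 6.54% and 2.06% of all 22180 genes). KO minus WT was positive in 61 and negative in 24, with a median of 0.07, against 45.8% positive over all genes. This count and those by role below average both numbers. The fibroblast markers differed by 0.03 in number 1 and 1.20 in number 2, and their part in these counts was not tested. UVA minus sham was positive in 30 and negative in 55, with a median of -0.04, against 51.0% positive over all genes.

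By role, the 5 measured SynCAMs and nectins were all at positive KO minus WT differences, from 0.02 to 0.59. Among the 20 leucine-rich receptors 13 were positive and 7 negative, with a median of 0.04. The LAR phosphatases Ptprd, Ptprf and Ptprs, which are receptors of SLITRK proteins, were listed with partners of these phosphatases. These 7 genes together had 5 positive and a median of 0.11. The 21 scaffolds, which hold neurexins and neuroligins from inside the cell, had 16 positive and a median of 0.12. The 14 secreted partners and other neurexin ligands had 9 positive and a median of 0.05.

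Of these genes Flrt2, a binding partner of latrophilins, had the largest genotype difference, 0.93 (SE 0.27; limma adjusted p = 0.482), and it was 0.25 in number 1 and 1.61 in number 2. Flrt2 read 1287 and 1676 in KO UVA and 1650 and 2070 in KO sham, against 1175 and 531 in WT UVA and 1282 and 700 in WT sham. Its KO arrays all lay above its WT arrays, by 5 units at the closest, an arrangement seen in 0.866% of all genes. Flrt2 was named for the size of its genotype difference, so this is not a further result. Its number 2 difference moved with the fibroblast markers, whose part was not tested.

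Cadm3, the neuronal SynCAM, read 354 and 236 in KO UVA and 392 and 256 in KO sham, against 296 and 134 in WT UVA and 303 and 137 in WT sham. The KO array was the higher one in each matched pair, which held for 7.65% of all genes, and Cadm3 was named for the size of this difference. The averaged difference was 0.59 (SE 0.12, limma adjusted p = 0.355), with 0.31 in number 1 and 0.86 in number 2. Lin7a, a scaffold that binds the neurexin partner Cask, differed by 0.13 in number 1 and 0.84 in number 2, averaging 0.48 (SE 0.15; limma adjusted p = 0.514). Both were larger in the number in which the fibroblast markers differed, whose part was not tested. Among the 71 list genes with a mean log2 intensity of at least 6, the largest UVA minus sham differences were -0.30 for Flrt2, -0.28 for the teneurin Tenm3 and -0.26 for the latrophilin Adgrl3 (SE 0.27, 0.12 and 0.11; limma adjusted p = 0.899, 0.760 and 0.764). Slitrk1 to Slitrk5, the relatives of Slitrk6, had UVA minus sham differences from -0.15 (Slitrk2) to 0.18 (Slitrk1), where Slitrk6 had -1.06.

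The genes whose log2 values over the 8 arrays lay closest to those of Nrxn2, each gene centred on its own mean, were Ap1s2, Ccl5, Csmd1, Cadm4 and Nqo1. The root mean square difference from Nrxn2 was 0.14 log2 units for Ap1s2, a subunit of a clathrin adaptor, 0.26 for the chemokine Ccl5, 0.32 for Csmd1, 0.35 for Cadm4 and 0.36 for the quinone reductase Nqo1, where Nrxn2 itself varied by 0.72 around its mean. Ap1s2 read 2183 and 3545 in KO UVA and 2370 and 3195 in KO sham, against 1085 and 1551 in WT UVA and 1044 and 1468 in WT sham. Like Nrxn2 it was higher in number 2 than in number 1 in each group. All its KO arrays lay above its WT arrays, which held for 0.866% of all genes. Ap1s2 was picked for its closeness over these arrays, so neither trait is a further likeness.

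Closest to Cadm4 were Plekhb1 (0.19), the intermediate filament gene Nes (0.21), the homeobox gene Hoxc10 (0.21), Trhde (0.22) and Id1 (0.23), where Cadm4 itself varied by 0.44. Closest to Slitrk6 was Csmd1 (0.45), followed by Ccl5 (0.49), the potassium channel gene Kcna1 (0.52), the mast cell protease family gene Mcpt8 (0.52) and Egflam (0.53), where Slitrk6 varied by 0.98. Relative to their own variation, no gene of the array followed Slitrk6 or Cadm4 as closely as Ap1s2 followed Nrxn2. These likenesses are descriptions over 8 arrays that share groups and replicate numbers.

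**Figure D4:**
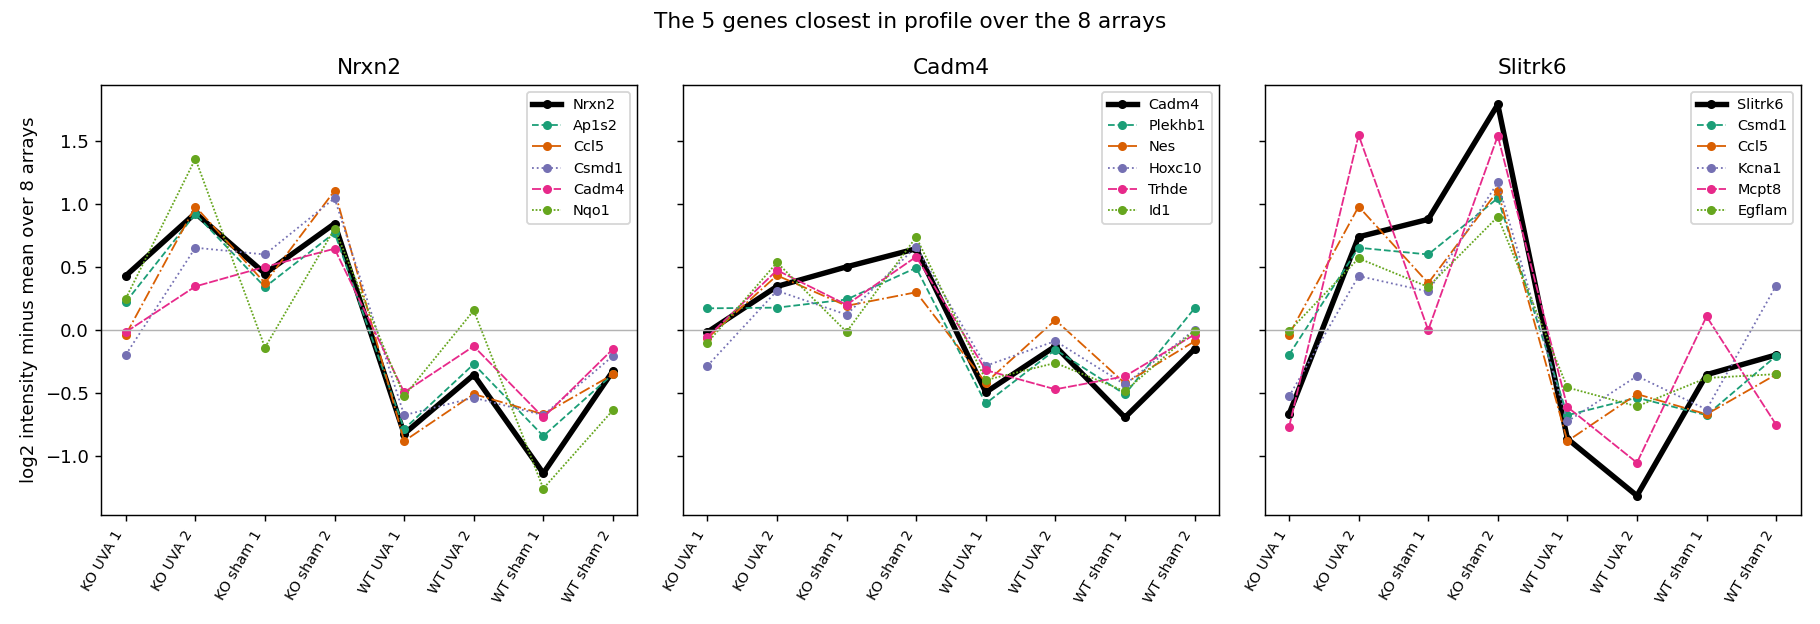
Log2 intensity minus the gene's own mean over the 8 arrays (vertical axis) for Nrxn2, Cadm4 and Slitrk6 (thick black lines) and for the 5 genes closest to each, across the arrays of KO UVA, KO sham, WT UVA and WT sham. Ap1s2 stays within a root mean square difference of 0.14 of Nrxn2, while the genes closest to Slitrk6 differ from it by 0.45 to 0.53.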

How the data were processed

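Gene expression was measured in 8 arrays of mouse melanocytes, 2 each of KO UVA, KO sham, WT UVA and WT sham, grouped by the sample titles. The authors deposited an intensity for each probe set on each array, obtained by RMA in Affymetrix Expression Console 1.3.1.187 per the submitters' processing notes. These are linear whole numbers between 7 and 22585. The quantile step of RMA gives every array about the same distribution, which hides a shift of most transcripts. The genome build is not given in the sources used here.

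Of 41345 probe sets, 23521 had 1 gene symbol, 1814 several and 16010 none in the platform annotation. The brightest single-symbol probe set stood for a gene, giving 22180 genes, with no filter on dim ones. Log2 was taken, and limma 3.58.1 in R 4.3.3 fitted 4 group means with the replicate number as a block, with moderated variances and a trend on the mean. The 3 comparisons, KO against WT, UVA against sham and their interaction, were two-sided, with Benjamini-Hochberg adjustment across the 22180 genes and a threshold of 0.05. The fit was tested on simulated data in which noise was independent between arrays and the number shift was the same in all groups. That simulation could not show errors from shared cultures or from a number shift that differs between genotypes. The sham and UVA arrays of a genotype and number enter separately; SEs of the genotype difference are too small if they share a culture. As a check of the block, the difference between number 1 and number 2 was correlated across genes between groups: r was 0.80 to 0.92 for the 6 combinations. It was 0.84 between KO UVA and KO sham and 0.92 between WT UVA and WT sham, against 0.80 to 0.82 across genotypes. Whether the sham and UVA arrays of a genotype and number share a culture was not tested. Only the titles give the numbers, and their meaning is not stated. The block was made the main setting when it was already known that it led to calls between the genotypes, Nrxn2 among them, and that the fit with no block made none; with 2 numbers, the correlations alone do not show that the numbers pair the arrays.

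The 9 members, the gene lists and the marker lists were chosen with earlier results of these data known. Named genes were the members, Atg7, Sqstm1, the list genes called or, over all lists together, with the 3 largest differences among those with a mean log2 of at least 6, and the 5 genes closest in profile to Nrxn2, Cadm4 and Slitrk6. Csmd2, Csmd3, the Slitrk relatives and the markers were named after their values were seen. Promoter windows came from RefSeq, and the motif CACGTG replaced CANNTG after matches were seen. Alternatives were no block, other blocks, culture means, a dim filter, an offset of 16, median centring, averaged probe sets, no trend and each array left out; the second Nrxn2 probe set was added after the data were seen.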

Additional observations from a re-analysis of the deposited data

Results flagged for a closer look

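Cadm4 was lower after UVA in both KO pairs (-0.52 and -0.30 log2 units) and not lower in the WT pairs (0.20 and 0.02). The WT average of 0.11 had an SE of 0.12 and so no direction beyond its error. The UVA response in KO minus that in WT was -0.52 log2 units, and this difference did not pass the limma test over all genes (adjusted p = 1). Leaving out any 1 array kept it between -0.66 and -0.38.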

How the results depend on the processing

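Precision is limited by 2 arrays per group. The numbers of genes called depended on the fit. Between the genotypes, 7 genes were called with the replicate block and 0 with no replicate block (517 at an unadjusted limma p under 0.05), 0 with the sham and UVA arrays of each genotype and number averaged (736), and 0 to 0 when any 1 array was left out (917 to 2509). For UVA against sham, 3 genes were called with the replicate block, 0 with no replicate block (401 at an unadjusted limma p under 0.05), 97 with each genotype and number as a block, and 0 to 2 without 1 array. No member passed under any alternative in a contrast on which it was tested.

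The Nrxn2 genotype difference moved to 0.65 with both probe sets averaged and to -0.0236 on the other probe set, and it was 1.23 to 1.41 without 1 array. On the other probe set the Nrxn2 interaction was 0.0913. The UVA difference of Slitrk6 was -0.97 with an offset of 16 and -1.38 to -0.74 without 1 array. The direction of small, uncalled differences turned when 1 array was left out. Genotype: Nrxn3 gave -0.0895 to 0.0661. UVA: Nlgn1 gave -0.188 to 0.0221, Nlgn2 -0.0244 to 0.128, Nlgn3 -0.0766 to 0.113, Nrxn2 -0.0026 to 0.177 and Nrxn3 -0.103 to 0.0526. Interaction: Cadm1 gave -0.197 to 0.151, Nlgn1 -0.210 to 0.210, Nlgn2 -0.230 to 0.0752, Nlgn3 -0.336 to 0.0441, Nrxn2 -0.289 to 0.0704, Nrxn3 -0.204 to 0.107 and Slitrk6 -1.12 to 0.153. Other uncalled differences kept their direction without 1 array but moved by over 1.5 times: the genotype difference of Cadm1 (-0.24 to -0.06), Nlgn1 (0.06 to 0.27) and Nlgn3 (0.0044 to 0.19), the UVA difference of Cadm4 (-0.22 to -0.08) and the interaction of Csmd1 (-0.68 to -0.18). The interaction of Nlgn1 was 0.0135 with array medians centred. The cause of these changes was not tested.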
